A study of Rattus norvegicus with 6 samples.

Results

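A set of 10 macrophage genes was followed through 6 transplanted rat hearts: the resident macrophage genes Cd163, Mrc1, Lyve1 and Vsig4, the injury or activation genes Arg1, Nos2, Spp1 and Gpnmb, and the pan-macrophage genes Csf1r and Adgre1. They were taken by symbol from the 22250 genes of the expression table, where each of the 10 had 1 entry, and all 10 were among the 13784 genes that passed the filter on low counts. The samples were left ventricular myocardium of male wild-type Sprague-Dawley donor hearts collected on day 1 after heterotopic transplantation into young recipients, a model in which the graft is perfused but does not pump against the load of a native heart. Young donors of 10 weeks gave 3 hearts (animals 3, 13 and 15) and aged donors of 1 year gave 3 (animals 3, 4 and 7), each number counting within its own group. All 6 had been arrested and kept cold in University of Wisconsin solution before surgery. No heart without transplantation is compared here, and RNA came from whole tissue, so cells of the donor and cells arriving from the recipient were measured together.

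Macrophages live in the healthy heart, where they clear dead cells and debris, and many more are made from blood monocytes after injury. Resident cells are recognised by scavenger and uptake receptors, whereas cells recruited to damaged muscle often switch on enzymes of arginine use and the secreted or membrane glycoproteins osteopontin and GPNMB. The receptor for colony-stimulating factor 1, encoded by Csf1r, keeps both kinds alive. None of these genes is exclusive to macrophages, since Lyve1 also marks lymphatic endothelium and Arg1 and Nos2 can be made by other myeloid cells.

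The reads counted on genes numbered 21457509 to 22277905 in young donor hearts and 22508040 to 24560869 in aged donor hearts. Levels are given as CPM, read counts scaled to library size with TMM factors (the trimmed mean of M values), on which scale 3 counts correspond to 0.0985 to 0.191 CPM. The scaling factors ran from 0.733 to 1.09 in young and from 1.13 to 1.24 in aged donor hearts, and genes of the mitochondrial genome took 11.9% to 21.7% of the counts in young against 6.56% to 10.3% in aged donor hearts. Young animal 15 stood apart from its group. Its counts differed from those of young animals 3 and 13 by a chi-square per degree of freedom of 471 and 503, against 9.81 between those 2 hearts. Among aged donor hearts it was 218 between animals 3 and 4, 205 between 3 and 7 and 71.6 between 4 and 7. Young animals 3 and 13 were thus unusually alike, and fits without young animal 15 rest on those 2 young donor hearts. The labelled tissue was checked with 9 cardiomyocyte markers, which summed to 74617, 83575 and 10769 CPM in young animals 3, 13 and 15 and to only 131 CPM in aged animal 3, with 6019 and 4276 CPM in aged animals 4 and 7. Results below are therefore also given without young animal 15, and without aged animal 3 where that moves them. Whether the cardiomyocyte share of the tissue contributed to the differences in macrophage genes was not tested.

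Aged were set against young donor hearts with the quasi-likelihood test of edgeR over all 13784 genes. A gene was counted as higher or lower when it passed the limits of the study, which ask for an unadjusted p-value under 0.05 and a fold change either above 1.5 or below 0.67. Of the 10 genes, 6 were higher in aged donor hearts and 0 were lower, against 13.2% higher and 19% lower among all genes tested. The 6 were 3 of the 4 resident genes (Cd163, Mrc1 and Vsig4), 2 of the 4 injury or activation genes (Arg1 and Nos2) and 1 of the 2 pan-macrophage genes (Adgre1). Lyve1, Spp1, Gpnmb and Csf1r did not pass. These limits carry no correction for the number of genes. An unadjusted p-value under 0.05 was given to 4731 genes, but a Benjamini-Hochberg adjusted p-value under 0.05 to 0 genes in edgeR and in limma-voom and to 3592 in DESeq2. In edgeR the adjusted p-values of the 6 genes ranged from 0.0916 to 0.124, and in DESeq2 the same 6 genes had adjusted p-values from 2.24e-05 to 0.0325. With library totals alone in place of TMM, the same number of the 10 genes passed, although the split over all genes turned from 1815 higher and 2621 lower to 3147 higher and 1441 lower, around a median log2 fold change that moved from 0.02 to 0.46. In bulk tissue, more cells of a type and more RNA per cell cannot be told apart.

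**Figure D1:**
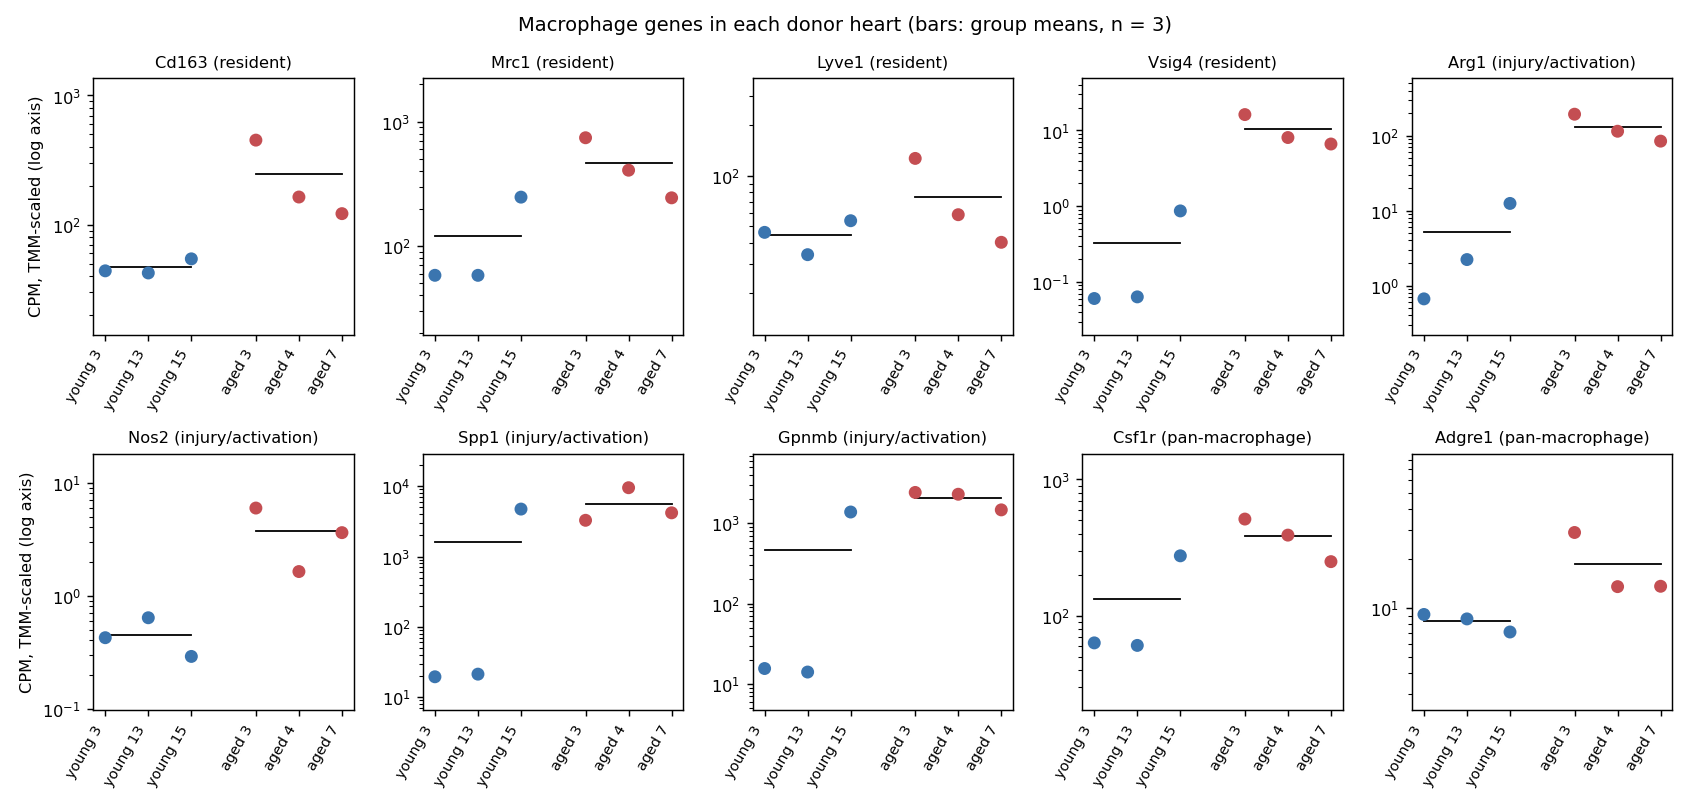
Level of each of the 10 genes in each heart, in CPM on a log axis (TMM scaled), for 3 young donor hearts in blue and 3 aged donor hearts in red, with horizontal lines at the group means and a scale of its own in each panel. Young animal 15 lies among the aged donor hearts for Spp1, Mrc1 and Csf1r and with the other young donor hearts for Nos2 and Adgre1.

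Among the resident genes, Vsig4 differed most. It encodes a complement receptor that takes up opsonised particles, and it is a minus-strand gene of chromosome X (65370851 to 65400298, build Rnor_6.0). It had 1, 1 and 21 reads in young animals 3, 13 and 15, or 0.0605, 0.0636 and 0.867 CPM, and 494, 213 and 173 reads in aged animals 3, 4 and 7, or 16.2, 8.07 and 6.63 CPM. The groups did not overlap. The log2 fold change was 4.82 (SE 0.98, edgeR adjusted p = 0.0916), the 19th largest of all genes tested. In summed reads scaled to library size, aged donor hearts held 26.1 times as much as young donor hearts, with a 95% exact counting interval of 17.3 to 41.3. Without young animal 15 the ratio was 171, with an interval of 47.2 to 1416 because only 2 reads remained in the young group, and the log2 fold change was 7.29 (edgeR adjusted p = 0.0017). Those intervals cover counting error only.

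Cd163 encodes the scavenger receptor for haemoglobin bound to haptoglobin and is a plus-strand gene of chromosome 4 (156752082 to 156785467). Its level was 44.0, 42.4 and 54.5 CPM in young animals 3, 13 and 15 and 452, 164 and 122 CPM in aged animals 3, 4 and 7. The young donor hearts were close together and all below the aged donor hearts, in which animal 3 was far above the other two. That gave a log2 fold change of 2.39 (SE 0.53, edgeR adjusted p = 0.0916). It was 1.61 without aged animal 3 and 2.54 without young animal 15, with unadjusted p-values in edgeR between 7.20e-04 and 0.0143 over the fits that left out 1 heart each.

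Mrc1 (chromosome 17, 81352700 to 81433743, plus strand), the mannose receptor of macrophages and some endothelial cells, followed another order. Its level was 58.1, 58.1 and 247 CPM in young animals 3, 13 and 15 and 743, 407 and 244 CPM in aged animals 3, 4 and 7. Young animal 15 was level with aged animal 7, so the groups overlapped. The log2 fold change was 1.94 (SE 0.73, edgeR adjusted p = 0.124). Mrc1 no longer passed the limits when young animal 3, young animal 13, aged animal 3 or aged animal 4 was left out, with log2 fold changes of 1.60, 1.60, 1.43 and 2.03 and unadjusted p-values in edgeR of 0.0935, 0.0916, 0.109 and 0.0662. Without young animal 15 it was 3.04 (edgeR adjusted p = 0.00638).

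Lyve1 encodes a hyaluronan receptor found on resident macrophages and on lymphatic endothelium (chromosome 1, 175663266 to 175676699, minus strand). Its level was 46.0, 33.9 and 54.0 CPM in young animals 3, 13 and 15 and 127, 58.7 and 40.2 CPM in aged animals 3, 4 and 7, so 1 aged donor heart lay inside the young range. The log2 fold change of 0.75 (SE 0.45, edgeR adjusted p = 0.255) did not pass the limits. It was 0.15 without aged animal 3 (unadjusted p = 0.623 in edgeR) and 1.06 without aged animal 7 (unadjusted p = 0.0428 in edgeR), and only in that fit did Lyve1 pass. The ratio of Cd163 to Lyve1 reads was 0.957, 1.25 and 1.01 in young animals 3, 13 and 15 and 3.55, 2.79 and 3.04 in aged animals 3, 4 and 7, so this ratio was higher in all aged than in all young donor hearts. The 5 lymphatic endothelial markers summed to 163 to 178 CPM in young and 296 to 361 CPM in aged donor hearts. Of them, Pdpn, Reln and Flt4 were higher and Prox1, the transcription factor that defines lymphatic endothelium but is also made in cardiomyocytes, was lower with a log2 fold change of -3.61 (SE 0.87, edgeR adjusted p = 0.0916). Pdpn was at 6.23, 6.49 and 68.3 CPM in young animals 3, 13 and 15. In aged animals 3, 4 and 7 it was at 259, 136 and 162 CPM, a large part of each aged sum. Ccl21, with a log2 fold change of -0.67, did not pass the limits. The higher sums in aged donor hearts therefore do not show a rise shared by the whole list. None of the 5 was at 0, and their part in the Lyve1 level was not tested.

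Among the injury or activation genes, Arg1 and Nos2 encode the enzymes that compete for arginine, arginase 1 giving ornithine and inducible nitric oxide synthase giving nitric oxide. Arg1 (chromosome 1, 21525421 to 21537863, plus strand) had 0.665, 2.23 and 12.5 CPM in young animals 3, 13 and 15 and 193, 114 and 84.5 CPM in aged animals 3, 4 and 7. All aged donor hearts lay far above all young donor hearts, and young animal 15 was above the other two of its group. Its log2 fold change reached 4.65 (SE 1.08, edgeR adjusted p = 0.0916), the 21st largest of all genes tested, and 6.54 without young animal 15 (edgeR adjusted p = 0.00183).

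Nos2 was scarce throughout. The gene (chromosome 10, 66189786 to 66313190, plus strand) had 7, 10 and 7 reads in young animals 3, 13 and 15, or 0.423, 0.636 and 0.289 CPM, and 181, 43 and 94 reads in aged animals 3, 4 and 7, or 5.94, 1.63 and 3.60 CPM. The groups did not overlap. In CPM young animal 15 was the lowest heart of all, with as many reads as young animal 3. In edgeR the log2 fold change was 3.06 (SE 0.61, edgeR adjusted p = 0.0916) and stayed between 2.55 and 3.42 when 1 heart was left out. Both enzymes were thus higher in aged donor hearts, with Arg1 at the greater level. Per length, as FPKM, the ratio of Arg1 to Nos2 was 7.01, 15.6 and 192 in young animals 3, 13 and 15 and 145, 313 and 105 in aged animals 3, 4 and 7, with young animal 15 inside the aged range.

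Spp1 and Gpnmb gave a different picture. Spp1 encodes osteopontin, a secreted protein bound by integrins and Cd44, and is a minus-strand gene of chromosome 14 (6673686 to 6679901). It had 19.5, 21.3 and 4725 CPM in young animals 3, 13 and 15 and 3272, 9508 and 4179 CPM in aged animals 3, 4 and 7. It took 0.0015% and 0.00156% of all counted reads in young animals 3 and 13 but 0.513% in young animal 15, where it was the 11th most counted gene, and 0.406%, 1.08% and 0.485% in aged animals 3, 4 and 7, where it ranked 12, 3 and 10. Young animal 15 thus lay in the middle of the aged donor hearts, 231 times above the mean of the other young donor hearts.

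Gpnmb encodes a membrane glycoprotein of phagocytes and is a plus-strand gene of chromosome 4 (78694447 to 78715683). It had 15.6, 14.1 and 1385 CPM in young animals 3, 13 and 15 and 2428, 2305 and 1472 CPM in aged animals 3, 4 and 7. The groups did not overlap, but the gap was narrow, since young animal 15 was 93.6 times above the mean of the other young donor hearts and the mean of the aged donor hearts was only 1.49 times above young animal 15.

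Neither gene passed the limits. The log2 fold change was 1.83 for Spp1 (SE 1.96, edgeR adjusted p = 0.515) and 2.13 for Gpnmb (SE 1.70, edgeR adjusted p = 0.381). On the mean of log2 values, limma-voom gave 5.51 for Spp1 (adjusted p = 0.228) and 4.89 for Gpnmb (adjusted p = 0.187) over the same 6 hearts, also short of the limits. Young animal 15 decided both calls in edgeR, because without it the log2 fold change was 8.15 for Spp1 (SE 0.77, edgeR adjusted p = 0.00148) and 7.16 for Gpnmb (SE 0.43, edgeR adjusted p = 9.99e-04). In that fit 9 of the 10 genes passed the limits, all but Lyve1, against 26.9% of 14109 genes tested that were higher. Without either of the other young donor hearts, Spp1 was at 1.25 and Gpnmb at 1.56.

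**Figure D2:**
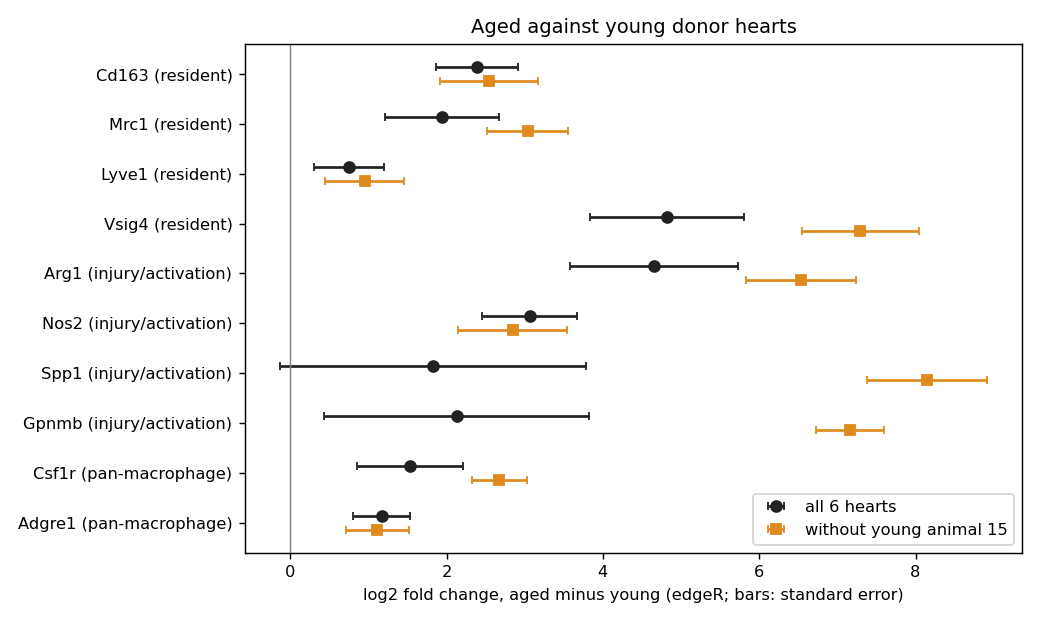
Log2 fold change of each of the 10 genes in aged against young donor hearts from edgeR, with bars of 1 standard error, for all 6 hearts (black circles) and without young animal 15 (orange squares). Spp1 moves from 1.83 to 8.15 and Gpnmb from 2.13 to 7.16, whereas Cd163, Lyve1, Nos2 and Adgre1 stay within 1 standard error of their value over all 6 hearts.

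Csf1r and Adgre1 are used to mark macrophages of either kind. Csf1r (chromosome 18, 56414488 to 56458300, plus strand) had 63.0, 60.3 and 275 CPM in young animals 3, 13 and 15 and 512, 390 and 249 CPM in aged animals 3, 4 and 7. Young animal 15 was above aged animal 7, as for Mrc1. The log2 fold change of 1.53 (SE 0.68, edgeR adjusted p = 0.161) did not pass the limits, with an unadjusted p-value of 0.0617. Csf1r passed them without young animal 15, at 2.67 (edgeR adjusted p = 0.00307), and with all 6 hearts in DESeq2 and limma-voom, where its unadjusted p-values were 0.0252 and 0.033. Adgre1, the rat gene for the adhesion receptor known as F4/80 (chromosome 9, 9431860 to 9585865, minus strand), had 9.14, 8.58 and 7.15 CPM in young animals 3, 13 and 15 and 28.8, 13.5 and 13.6 CPM in aged animals 3, 4 and 7. The groups did not overlap, and in CPM young animal 15 was the lowest heart. Adgre1 had 151, 135 and 173 reads and 2.15, 1.92 and 2.38 FPKM in young animals 3, 13 and 15, where animal 15 was the highest of its group. The log2 fold change was 1.17 (SE 0.36, edgeR adjusted p = 0.0975). It was 0.71 without aged animal 3 and 1.11 without young animal 15.

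By heart rather than by test, 6 of the 10 genes had all aged donor hearts above all young donor hearts (Cd163, Vsig4, Arg1, Nos2, Gpnmb and Adgre1), against 21% of all genes tested. For each of those the exact two-sided permutation test gave p = 0.1, the smallest that 3 hearts against 3 allow. With library totals alone, and with the deposited FPKM, 7 of the 10 genes did not overlap. The share over all genes was not counted on those scales.

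In CPM, young animal 15 did not occupy a fixed place between the groups. Its place depends on the TMM factors, which were 1.09 in young animal 15 and 0.771 and 0.733 in young animals 3 and 13. This heart was above both other young donor hearts in 8 of the 10 genes, where 46.1% of all genes tested had it so. It was within the aged range in 4 of the 10 (Mrc1, Lyve1, Spp1 and Csf1r), where 41.4% of all genes did. The second count is near the share over all genes. Against the mean of the other young donor hearts, its level was 231 times for Spp1, 93.6 times for Gpnmb, 14 times for Vsig4, 8.63 times for Arg1, 4.46 times for Csf1r and 4.25 times for Mrc1, but 1.26 times for Cd163, 0.807 times for Adgre1 and 0.546 times for Nos2. The aged mean remained 12.9 times above young animal 15 for Nos2, 11.9 times for Vsig4, 10.5 times for Arg1 and 4.51 times for Cd163, against 1.88 times for Mrc1, 1.40 times for Csf1r and 1.20 times for Spp1. The ratio of Mrc1 to Cd163 reads was 4.54 in young animal 15, 1.32 and 1.37 in the other young donor hearts and 1.64 to 2.48 in aged donor hearts. These are values of 1 heart, with no replicate of its pattern.

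The resident class was then set against the injury class within each heart, as the mean log2 CPM of its 4 genes. Resident genes averaged 3.52, 3.40 and 4.85 in young animals 3, 13 and 15 and 7.34, 6.23 and 5.74 in aged animals 3, 4 and 7. Injury or activation genes averaged 1.72, 2.24 and 6.22 in the young and 8.28, 8.0 and 7.71 in the aged animals. Neither class overlapped between the groups. The injury mean minus the resident mean was -1.80, -1.16 and 1.37 in young animals 3, 13 and 15 and 0.93, 1.77 and 1.97 in the aged animals, so the resident mean led in 2 young donor hearts and the injury mean in the other 4 hearts. Its mean was -0.53 ± 1.68 (SD, n = 3) over young and 1.56 ± 0.55 (SD, n = 3) over aged donor hearts. The difference of 2.09 on the log2 scale is near the spread of the young group. It was 3.04 without young animal 15 and 1.45 without young animal 3. CPM carries no correction for gene length, and with log2(FPKM + 0.1) the difference was 1.94. The injury genes did not all lead. In CPM, Spp1 and Gpnmb lay above Cd163 and Mrc1 in those 4 hearts, but Arg1 and Nos2 lay below both in every heart. The log2 ratio of Arg1 to Cd163 in CPM was -2.12 in young animal 15 and -1.23, -0.52 and -0.53 in the aged animals. Per length, Arg1 was above Cd163 in all aged animals, at 160, 86.4 and 65.4 FPKM against 131, 43.5 and 33.2 FPKM. It was above Mrc1, at 176, 88.0 and 54.1 FPKM, only in aged animal 7, and Nos2 stayed below both. Arg1 was also above Lyve1 and Vsig4 in CPM in every aged animal. The median log2 fold change was 2.16 for the resident class, 2.60 for the injury class and 1.35 for the 2 pan-macrophage genes, against 0.02 for all genes tested.

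**Figure D3:**
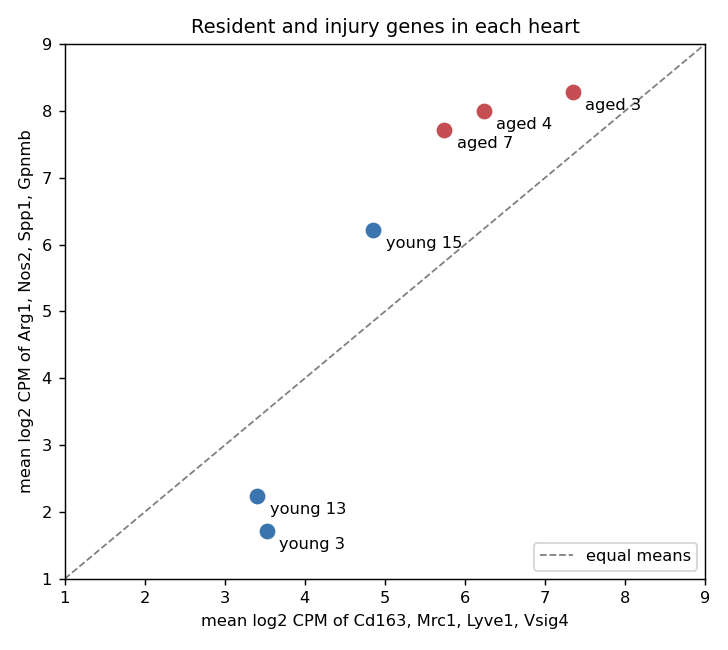
Mean log2 CPM of the 4 injury or activation genes against that of the 4 resident genes in each heart, young donor hearts in blue and aged donor hearts in red, with a dashed line where the means are equal. Young animals 3 and 13 lie below the line and the other 4 hearts above it, with young animal 15 at 4.85 and 6.22.

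To take out a change shared by all macrophage genes, each gene was divided by Csf1r of the same heart, and the log2 ratio was compared between the groups with limma over all 13783 other genes. Since Csf1r itself was at a higher mean level in aged donor hearts, the median of all genes was -1.84 on this scale, and 51.9% of them were lower and 0.689% higher by the same limits. Of the 9 remaining macrophage genes, 4 were higher relative to Csf1r and 0 were lower. Arg1 was 3.61 higher (SE 0.83, limma adjusted p = 0.008), Vsig4 3.27 higher (SE 0.88, limma adjusted p = 0.016), Spp1 3.48 higher (SE 1.22, limma adjusted p = 0.042) and Gpnmb 3.05 higher (SE 1.04, limma adjusted p = 0.038). All 4 passed the limits in each fit that left out 1 heart, with Spp1 between 2.48 and 5.38 and Gpnmb between 2.30 and 4.51, the upper values without young animal 15 and the lower without young animal 3 for Spp1 and young animal 13 for Gpnmb.

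For Arg1 and Vsig4 the ratios did not overlap between the groups. The log2 ratio of Arg1 to Csf1r was -6.39, -4.71 and -4.45 in young animals 3, 13 and 15 and -1.40, -1.77 and -1.56 in aged animals 3, 4 and 7. That of Vsig4 was -8.75, -8.66 and -8.17 in the young and -4.97, -5.58 and -5.21 in the aged animals. On this scale young animal 15 was with its own group for both genes. For Vsig4 this rests on the prior count of 2 added before taking logs, since young animals 3 and 13 had 1 read each. With a prior count of 0.5 the change of Vsig4 was 3.84 (SE 0.95) in place of 3.27. Without young animal 3 the change of Arg1 was 3.0.

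For Spp1 and Gpnmb it was not. The log2 ratio of Spp1 to Csf1r was -1.68, -1.5 and 4.10 in young animals 3, 13 and 15 and 2.68, 4.61 and 4.07 in aged animals 3, 4 and 7, and that of Gpnmb was -2.01, -2.10 and 2.33 in young and 2.25, 2.56 and 2.56 in the aged animals. The groups overlapped, and the exact two-sided permutation p was 0.3 for Spp1 and 0.2 for Gpnmb. The limma p-values borrow their spread from all genes. The standard deviation over hearts was 2.43 before and 1.49 after that step for Spp1, and 1.80 before and 1.27 after it for Gpnmb, so both adjusted p-values are smaller than the 6 hearts of each gene alone would give. The step went the other way for Mrc1, from 0.218 to 0.996, and for Vsig4, from 0.308 to 1.08, which widened their standard errors.

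The other 5 genes did not pass. The log2 ratio to Csf1r differed by 0.30 for Cd163 (SE 0.84), 0.30 for Mrc1 (SE 0.81), 0.85 for Nos2 (SE 1.0), -0.79 for Adgre1 (SE 0.87) and -1.25 for Lyve1 (SE 0.82), with unadjusted p-values in limma from 0.143 to 0.725. The log2 ratios of Mrc1 to Csf1r were -0.12, -0.054 and -0.15 in the young and 0.54, 0.063 and -0.028 in the aged animals, and did not overlap. Together with Arg1 and Vsig4 this made 3 of 9 genes with all aged donor hearts higher, against 1.71% of all genes, and 0 of 9 with all of them lower, against 35.5%. Without young animal 15, Lyve1 (-1.82) and Adgre1 (-1.61) were lower relative to Csf1r with unadjusted p-values in limma of 8.73e-04 and 0.00317. With Adgre1 in place of Csf1r below the line, Cd163 (1.08) and Nos2 (1.63) passed as well, with unadjusted p-values in limma of 0.0405 and 0.0216.

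**Figure D4:**
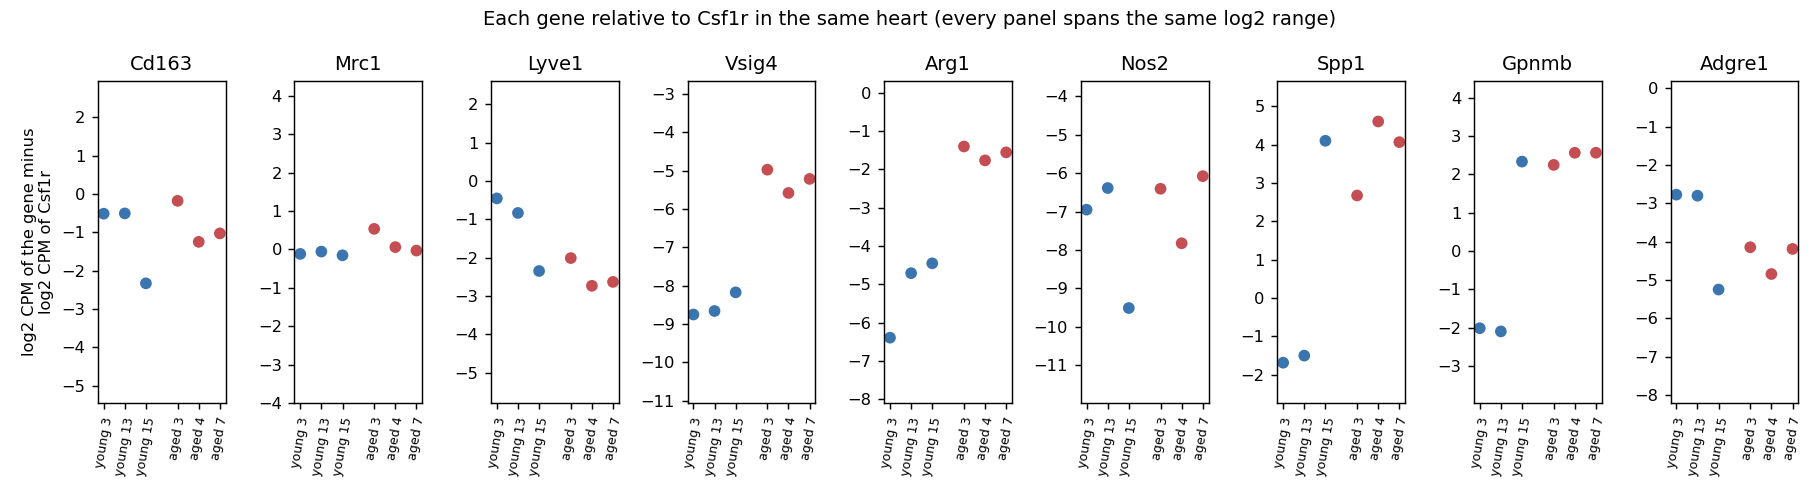
Log2 ratio of each of 9 genes to Csf1r in the same heart, young donor hearts in blue and aged donor hearts in red, with panels that differ in position but span the same log2 range. Arg1 and Vsig4 separate the groups, Spp1 and Gpnmb separate young animals 3 and 13 from the other 4 hearts, and Mrc1 stays between -0.15 and 0.54.

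Levels of different genes were compared per length, as FPKM. In aged donor hearts the order from high to low was Spp1 (4313 ± 2408 FPKM, SD, n = 3), Gpnmb (1059 ± 289), Csf1r (114 ± 43.5), Mrc1 (106 ± 62.9), Arg1 (104 ± 49.6), Cd163 (69.4 ± 54.0), Lyve1 (29.2 ± 19.2), Vsig4 (8.72 ± 4.81), Adgre1 (6.81 ± 3.58) and Nos2 (0.668 ± 0.415). Spp1 and Gpnmb did not overlap with their next neighbours, nor did Lyve1 with Vsig4 or Adgre1 with Nos2, whereas among the 5 genes from Csf1r to Lyve1 each overlapped its next neighbour. In young donor hearts Spp1 (1134 ± 1946 FPKM, SD, n = 3) and Gpnmb (221 ± 374) had SDs above their means, and among neighbours only Adgre1 (2.15 ± 0.226) and Vsig4 (0.245 ± 0.366) did not overlap. Arg1 stood at the seventh place in young donor hearts, at 3.49 ± 4.83 FPKM, and at the fifth in aged donor hearts.

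The genes whose level followed that of a macrophage gene most closely over the 6 hearts were sought by Pearson's r of log2 CPM among 12957 other genes, as a description without a test, since the hearts share their groups and the split of the young donor hearts. For Cd163 they were Ctsc (r = 0.998), a lysosomal protease that activates the granule proteases of myeloid cells, Sipa1 (0.997) and Ms4a4e (0.995), and 161 genes had r above 0.95. For Csf1r they were Psme2, Hdac1 and Mvd (each 0.999), with 1396 genes above 0.95. For Spp1 they were Tubb6 (0.999), St13 (0.998) and Slc39a7 (0.998), with 1196 above 0.95.

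Around the 10 genes, lists of related genes were read in the same edgeR fit, and the values given for them are log2 fold changes. Of 15 other genes of the macrophage and myeloid lineage, 5 were higher and 0 lower, including Ptprc, the leukocyte antigen CD45, with a log2 fold change of 2.01 (SE 0.83), the myeloid transcription factor Spi1 with 1.95 (SE 0.74) and Ms4a7 with 1.92 (SE 0.72), with edgeR adjusted p-values of 0.124 to 0.144. Their sum was 305, 275 and 2486 CPM in young animals 3, 13 and 15 and 7252, 4321 and 4088 CPM in aged animals 3, 4 and 7, with none at 0. The count was 15 of 15 without young animal 15 and 0 without any one of young animals 3 and 13 and aged animals 3 and 4. Over all genes tested the number higher also moved in these fits. It was 3802 of 14109 without young animal 15, and 817 of 14024 and 862 of 14060 without young animals 3 and 13. Without aged animals 3, 4 and 7 it was 1048 of 14033, 1404 of 14089 and 1238 of 14083. The list counts with 1 heart left out, here and below, stand beside these. Of 7 monocyte genes, 6 were higher, among them Fcnb (3.25, SE 1.08) and Plac8 (2.20, SE 0.85), and the list summed to 120 to 758 CPM in young and 998 to 1881 CPM in aged donor hearts. That count was 2 or 3 without young animal 3, young animal 13, aged animal 3 or aged animal 7.

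Among other resident macrophage genes, only 1 was lower. Of 8 tested, 5 were higher, among them F13a1, the A chain of coagulation factor XIII, at 2.05 (SE 0.26) and Mertk, a receptor for engulfing dead cells, at 1.67 (SE 0.56), with edgeR adjusted p-values of 0.0916 to 0.105. Gas6, which encodes a ligand of Mertk, was lower at -1.60 (SE 0.31, edgeR adjusted p = 0.0916), with 530, 537 and 303 CPM in young animals 3, 13 and 15 and 166, 162 and 126 CPM in aged animals 3, 4 and 7. The number higher was 2 without young animal 3, young animal 13 or aged animal 3.

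Partners of the injury genes moved unevenly. Of 10 genes of arginine use, 6 were higher and 0 lower. Ass1, which remakes arginine from citrulline, was at 2.12 (SE 0.42), Gch1, needed for the cofactor of nitric oxide synthases, at 1.58 (SE 0.41), and the arginine transporter gene Slc7a1 at 1.33 (SE 0.49), with edgeR adjusted p-values of 0.0916 to 0.121. The number higher stayed between 4 and 6 when 1 heart was left out, and the number lower ran from 0 to 2, the latter without aged animal 4. Of 8 osteopontin receptor genes, only Itgb3 was higher (1.82, SE 0.47), while Itga8 (-1.80, SE 0.73) and Itga9 (-1.41, SE 0.38) were lower. Without young animal 15, 5 of the 8 were higher, and without aged animal 3 it was 2. Only 1 was lower without young animal 15, aged animal 4 or aged animal 7. Among the partners of Gpnmb, Tfec of the MiT factor family was higher (2.58, SE 0.96) and Mitf was lower (-1.40, SE 0.46), among 6 tested. No gene of that list was higher without young animal 3, young animal 13, aged animal 3 or aged animal 7, and none was lower without the first 3 of these.

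Of 12 other injury or lipid-associated genes, 4 were higher and 3 were lower. The protease gene Ctsb was higher at 1.59 (SE 0.60). The lower genes were Lpl, which encodes the lipase that takes lipid from lipoproteins, at -3.13 (SE 0.63), Vegfa at -2.61 (SE 0.86) and Cd9 at -0.69 (SE 0.18), and all 3 are also made outside macrophages. The number higher was 9 without young animal 15, 0 without young animal 3, 1 without young animal 13 and 2 without aged animal 3 or aged animal 4.

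Ligands of the 10 genes and genes related to them were also measured. Of 4 genes tested from the Csf1r ligands and the colony-stimulating factor axis, 3 were higher. Csf1, a ligand of Csf1r, was at 1.85 (SE 0.73). Csf2ra and Csf2rb, receptor genes of another colony-stimulating factor, were at 2.27 (SE 0.79) and 2.78 (SE 0.73). The edgeR adjusted p-values of these 3 were 0.0916 to 0.135, and Il34 did not pass the limits. Only 1 of the 4 was higher without young animal 3, young animal 13, aged animal 3 or aged animal 4. Beside Cd163, Hmox1, the haem-degrading enzyme that acts on its cargo, was at 3.37 (SE 1.20) and haptoglobin (Hp) at 1.85 (SE 0.56), 2 of 5 genes tested. Neither passed without young animal 3, and only 1 did without young animal 13, aged animal 3 or aged animal 7. Beside Mrc1 and Lyve1, Ly75 of the mannose receptor family was higher at 2.59 (SE 0.51), 1 of 4 genes tested.

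Genes of the inflammatory and of the alternative activation list were both measured. Of 10 inflammatory genes tested, 5 were higher and 0 lower, with Cxcl2 at 5.68 (SE 0.85), Il6 at 4.63 (SE 1.33) and Il1b at 3.84 (SE 0.84). Of 8 alternative activation genes tested, 6 were higher and 0 lower, with Il10 at 2.58 (SE 0.73), Il4r at 1.96 (SE 0.52) and Il13ra1 at 1.53 (SE 0.41). The edgeR adjusted p-values of these 6 genes were 0.0916 to 0.0927. The fold changes of 3 of them rest on few reads in young animals 3, 13 and 15. Cxcl2 had 2, 5 and 8 reads there, Il6 had 0, 0 and 10, and Il10 had 1, 1 and 7. Retnla, a rodent gene of alternative activation, had no read in any heart. Without young animal 15, 10 of the 10 inflammatory genes were higher, and without young animal 3 it was 4.

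Markers of other blood cells were read in the same way. The neutrophil list had 7 of 7 tested markers higher, led by Cxcr2 (4.42, SE 1.28), Csf3r (4.06, SE 1.44) and S100a9 (3.94, SE 1.40), and summed to 17.1, 16.3 and 135 CPM in young animals 3, 13 and 15 and 1309, 346 and 738 CPM in aged animals 3, 4 and 7. The count was 3 or 4 without young animal 3, young animal 13, aged animal 3 or aged animal 7. Young animal 15 was again above its group and below the aged donor hearts, the order seen for Arg1 and Vsig4. Of 3 T cell markers 1 was higher, Cd2 at 2.50 (SE 0.45), with sums of 2.48 to 4.05 CPM in young and 6.71 to 9.59 CPM in aged donor hearts. Of 5 dendritic cell markers 1 was higher, Ccr7 at 1.5 (SE 0.60), with sums of 30.6 to 36.4 CPM in young and 26.2 to 43.0 CPM in aged donor hearts, which overlapped. Among all genes tested 13.2% were higher.

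Among markers of structural cells, those of cardiomyocytes were lower in 4 of 9, led by Myh6 at -6.09 (SE 1.85), Actc1 at -4.70 (SE 1.74) and Pln at -4.41 (SE 1.23), in 8 of 9 without aged animal 3, in 2 without young animal 3 or young animal 13 and in 1 without aged animal 7. Fibroblast markers were lower in 3 of 7, namely Col1a1 (-1.61, SE 0.62), Dpt (-1.60, SE 0.36) and Col3a1 (-1.32, SE 0.44), with sums of 6576 to 8198 CPM in young and 2095 to 4283 CPM in aged donor hearts. That count was 1 without young animal 3 or aged animal 7. Emcn, at -1.34 (SE 0.30), was the only one of 6 endothelial markers that was lower, and 0 of 4 smooth muscle markers passed, with sums of 1097 to 1579 against 852 to 1321 CPM and of 271 to 446 against 248 to 411 CPM. Among all genes tested 19% were lower, and 1 of 6 endothelial markers is near that share. The 2 tested atrial markers summed to 43.1 to 391 CPM in young and 4.83 to 1469 CPM in aged donor hearts. The part of these cell types in the levels of the 10 genes was not tested.

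**Figure D5:**
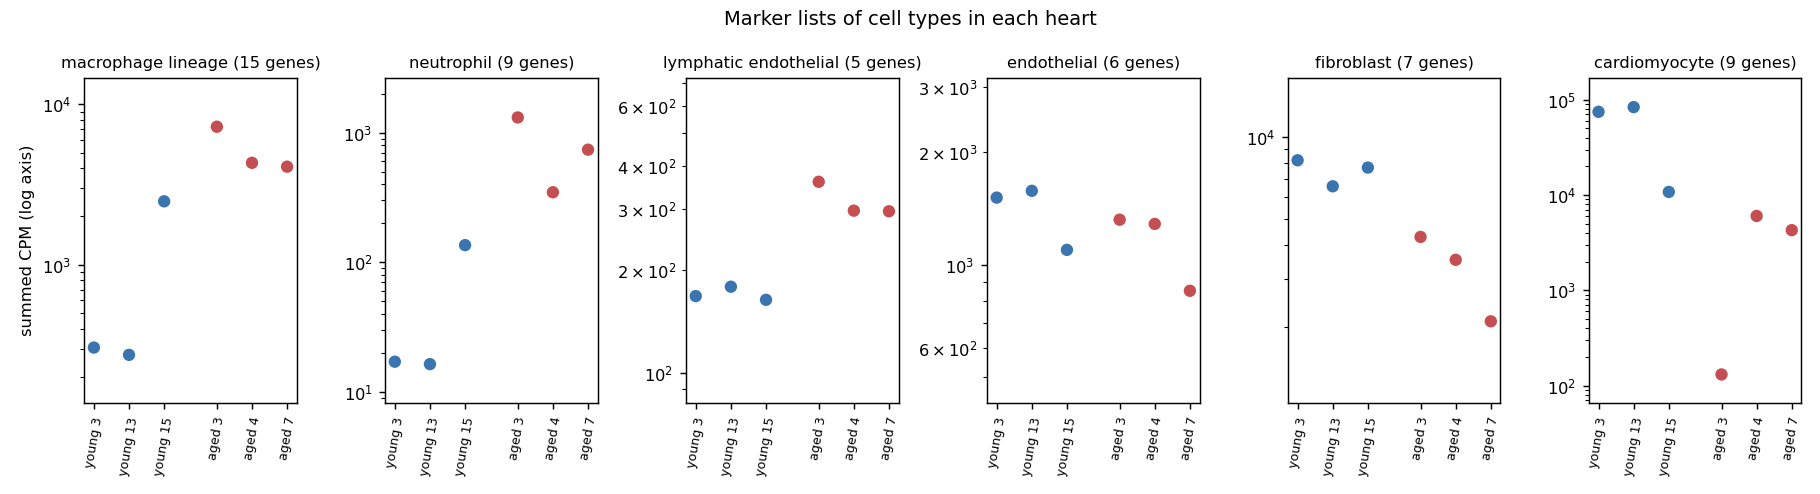
Summed CPM of 6 lists of cell type markers in each heart, on log axes with a scale of their own in each panel, young donor hearts in blue and aged donor hearts in red. The macrophage lineage sum runs from 275 to 2486 CPM in young and from 4088 to 7252 CPM in aged donor hearts, while the cardiomyocyte sum falls to 131 CPM in aged animal 3.

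Promoter sequences, from 250 bases before to 50 after the transcription start, were read from RefSeq on the GRCr8 build for 8 of the 10 genes, all except Arg1 and Nos2. The 100 bases before the start are shown for Spp1 and Gpnmb, both far higher in young animal 15 than in the other young donor hearts. They are also shown for 2 of the resident genes. In CPM, Mrc1 of young animal 15 was within the aged range, as was Lyve1, and Vsig4 was outside it, as was Cd163. Capitals mark letters of a motif that was searched.
Gpnmb, chr4:79341028-79341127, plus strand: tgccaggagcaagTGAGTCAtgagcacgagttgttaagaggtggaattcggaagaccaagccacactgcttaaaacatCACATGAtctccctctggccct
Spp1, chr14:5619805-5619904, minus strand: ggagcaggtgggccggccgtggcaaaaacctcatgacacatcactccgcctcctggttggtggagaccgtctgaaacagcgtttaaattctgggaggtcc
Mrc1, chr17:82157625-82157724, plus strand: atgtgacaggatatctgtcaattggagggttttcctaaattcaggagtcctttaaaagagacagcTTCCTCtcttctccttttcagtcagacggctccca
Vsig4, chrX:65179709-65179808, minus strand: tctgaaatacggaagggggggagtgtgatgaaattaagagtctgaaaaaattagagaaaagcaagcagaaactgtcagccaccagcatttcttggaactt

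Each motif was searched on both strands of the 300-base windows, and its share among 33469 RefSeq promoters of the same length is given. The AP-1 letters TGANTCA, present in 7.33% of all promoters, were found in 1 of the 8, Gpnmb, 87 bases before its start. The M-box letters TCATGTG, present in 3.56%, were found on the minus strand of the same promoter, 22 bases before the start. The PU.1 letters GAGGAA, present in 27.6%, were in 4 of the 8 (Gpnmb, Mrc1, Csf1r and Adgre1), and in Mrc1 they stood on the minus strand 180 and 35 bases before the start. The C/EBP letters TTGCNNAA, present in 10.6%, were in Adgre1, and the letters TATAAA, present in 14.2%, were in Spp1, 204 bases before its start. The E-box letters CACGTG (6.42%) and the NF-kB letters GGGANTTCC (1.64%) were in 0 of the 8. In these windows Spp1 and Gpnmb held none of the searched motifs in common. A match describes letters only.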

How the data were processed

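The authors deposited 1 table with raw read counts per gene, without normalization, and FPKM values. The latter equal the counts over gene length and library total, which held in all but 1 of 133500 values within 1%. Per the submitters' processing notes the tools include HISAT2 2.0.5 and featureCounts 1.5.0-p3 and the build Rnor_6.0. The use of strand is not given in the sources used here, so reads shared with overlapping genes are uncertain. The 6 libraries are separate animals by their labels, and the table held 0 per-sample columns of other samples.

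Counts were fitted with edgeR 4.0.16 (filterByExpr, TMM, glmQLFit and glmQLFTest, no covariate), limma 3.58.1 and DESeq2 1.42.0 under R 4.3.3. Standard errors were derived from the F statistic and the fold change. Ratios to Csf1r used log2 CPM with a prior count of 2 and limma with a trend. Benjamini-Hochberg adjustment ran over all genes tested. The edgeR and limma fits were tested on simulated data. The 10 genes and all lists were chosen with earlier results of these data known. All 10 genes were named, and from other lists up to 3 genes past the limits with the greatest change, those against the list's direction and those at 0 reads in every heart. For genes alike in level, the 3 with the highest r were named. Flt4 was named after its values were seen. Some genes that this rule would name are not reported here. Marker genes Timd4, Cbr2, Cd209b, Ccr2, Chil3, Itgb5, Ttn and Pecam1 are not analysed here. Marco, Tnf, Il12b, Ccl17, Csf2, Csf3, Atp6v0d2, Stab2, Mpo, Ngp, Cd3d, Cd5 and Sln did not pass the filter. Alternatives were other scalings, filters, tests, thresholds, prior counts and denominators, and each heart left out in turn.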

Additional observations from a re-analysis of the deposited data

How the results depend on the processing

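No paired analysis was possible because the groups share fewer than 2 replicate numbers, and the one they share marks different animals. No alternative was left out. With a Benjamini-Hochberg adjusted p-value under 0.05 in place of the unadjusted one, 0 of the 10 genes, 0 resident, 0 injury and 0 of all genes in either direction passed in edgeR. In DESeq2 6 of the 10 passed at that adjusted limit. With library totals alone, 3147 genes were higher and 1441 lower, and with a fold change of 2, 1107 were higher. Leaving out 1 heart in turn gave 5 (without either young animal 3 or 13 or aged animal 3 or 4) to 9 (without young animal 15) of the 10 genes past the limits, 2 to 4 resident and 2 to 4 injury genes, 817 (without young animal 3) to 3802 (without young animal 15) genes higher and 1615 to 3412 lower.

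Relative to Csf1r, Cd163 changed sign, at -0.31 without young animal 15 and -0.021 without aged animal 3, up to 0.60 without young animal 13, and Nos2 was at -0.11 without young animal 15 and up to 1.48, none of them past the limits. The cause was not tested. Cd163, Vsig4, Arg1, Nos2 and Adgre1 kept their direction and stayed past the limits with each heart left out. The difference between injury and resident genes ran from 1.45 to 3.04. Spp1, Gpnmb and Csf1r passed without young animal 15 and in no other fit that left out 1 heart, and Nos2 and Vsig4 rest on few reads in young donor hearts.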
